A study of Saccharomyces cerevisiae with 6 samples.

Results

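The genes described here make phenylalanine and tyrosine in the yeast Saccharomyces cerevisiae and break these amino acids down. They are the 10 genes ARO1, ARO2, ARO3, ARO4, ARO7, ARO8, ARO9, ARO10, TYR1 and PHA2, chosen by name among the 5703 features of the expression tables. Each name matched 1 feature, and all 10 passed the filter on low values, a mean of at least 1 FPKM (reads per kilobase of feature, scaled to the counted reads of the library) over all libraries. Strain IMF17 carries the genes of glycolysis on an added synthetic chromosome, the neochromosome, and strain IMX2109 carries them in its native genome. The comparison asks how gene expression differs between these strains. Each strain was represented by 3 cultures, described as biological triplicates begun from a frozen stock, which were grown with air in a selective minimal medium with glucose and sampled in mid-exponential growth at an optical density of 8 (660 nm). The sources used here do not give the further genotype, what both strains share, or what makes the medium selective.

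The aromatic pathway begins where phosphoenolpyruvate from glycolysis meets erythrose 4-phosphate from the pentose phosphate pathway, runs through shikimate to chorismate, and then branches to phenylalanine, tyrosine and tryptophan. Many genes of amino acid synthesis are activated by Gcn4 when amino acids run short. In the other direction, yeast uses aromatic amino acids as a nitrogen source by removing the amino group and converting the remaining keto acid to a fusel alcohol, the Ehrlich pathway. The activator Aro80 turns on ARO9 and ARO10 when aromatic amino acids are present.

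Counted reads per library ranged from 14999412 to 15914985 in IMF17 and from 14696540 to 18801158 in IMX2109. Features of the 2-micron plasmid had 14854 to 15176 reads in the IMF17 libraries and 0 in those of IMX2109, which sets the libraries of the strains apart. The strain descriptions used here do not say whether IMX2109 lacks this plasmid, so the strain labels were not checked by it. The nuclear chromosomes other than the neochromosome hold all 10 genes. They took up 84.6 ± 0.323% of the reads of IMF17 libraries and 90.4 ± 0.519% of those of IMX2109 libraries (SD, n = 3). Features were counted on an assembly of IMF17. Those on its neochromosome took up 15.3 ± 0.324% of reads in IMF17 and 9.61 ± 0.519% in IMX2109, which carries the genes of glycolysis in its native genome. The scaling of FPKM uses the reads of all chromosomes, so a small difference of a nuclear gene depends on it. Calls are therefore also given after a median-ratio rescaling, which sets the median feature equal between libraries, and after scaling to nuclear reads alone. Nuclear reads here leave out those counted on the neochromosome, in both strains. In IMX2109 the libraries also differed from each other with feature length. Features over 4000 bases long had a median deviation from their strain mean of -0.11 in IMX2109 replicate 1 and 0.13 in IMX2109 replicate 3 on the log2 scale, and of -0.01 to 0.02 in the IMF17 libraries.

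Both genes specific to breakdown rose in IMF17, while 6 of the 8 others fell slightly and 2 did not pass the test. ARO9 was 2.28-fold and ARO10 2.78-fold higher in mean FPKM. The falls of the synthesis genes were 1.12-fold to 1.23-fold, and 5 of the 6 were lost when libraries were rescaled on nuclear reads. Across all 5425 tested features, 12.1% were called higher and 25.3% lower in IMF17 (limma, adjusted p under 0.05), so a share of falls above that of rises holds for the whole table. The median log2 fold change was -0.17 over the 10 genes and -0.07 over all tested features. A mean at least 2-fold higher in IMF17, as for ARO9 and ARO10, was found for 2.8% of tested features.

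**Figure D1:**
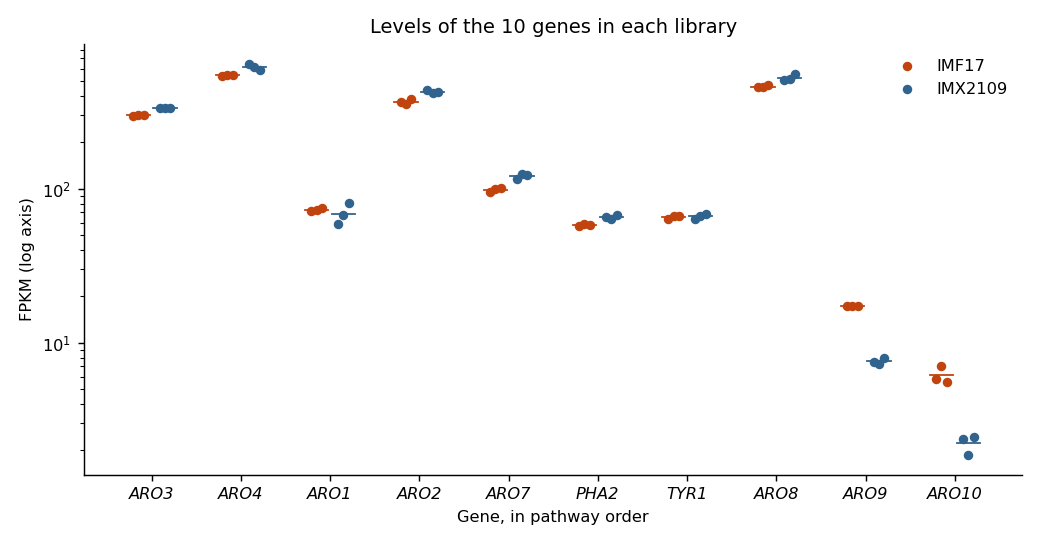
FPKM of each gene (log axis) in the 3 libraries of IMF17 and the 3 of IMX2109, in pathway order, with points for libraries and short lines for strain means. ARO9 and ARO10 are the lowest genes in both strains and are higher in IMF17, with no overlap of libraries. ARO1 is spread from 58.6 to 80.6 FPKM in IMX2109.

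ARO9 encodes aromatic aminotransferase II, which takes the amino group off aromatic amino acids in breakdown. It lies on chromosome 8 from 372355 to 373896 on the plus strand of the IMF17 assembly. Its level was 17.3, 17.2 and 17.4 FPKM in IMF17 replicates 1, 2 and 3, and 7.52, 7.26 and 7.99 FPKM in IMX2109 replicates 1, 2 and 3. Every IMF17 value exceeded every IMX2109 value, and replicates of a strain were close together. These levels rested on 397 to 427 reads in each IMF17 library and 181 to 218 in each IMX2109 library. On the scale of log2(FPKM + 1), ARO9 rose by 1.09 ± 0.08 (SE, limma adjusted p = 1.03e-06).

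ARO10 encodes phenylpyruvate decarboxylase, which turns the keto acids left by deamination into fusel aldehydes. It lies on chromosome 4 from 1217219 to 1219126 on the plus strand. Its level was 5.80, 7.09 and 5.57 FPKM in the IMF17 libraries and 2.37, 1.86 and 2.43 FPKM in the IMX2109 libraries. The strains did not overlap, although ARO10 was the lowest of the 10 genes, with 169 to 203 reads in each IMF17 library and 64 to 85 in each IMX2109 library. The rise was 1.15 ± 0.12 on the scale of log2(FPKM + 1) (SE, limma adjusted p = 3.08e-05). At this level the pseudocount shrinks the change, which was 1.47 with limma-voom on reads recovered from the FPKM values. Both rises kept their call under either rescaling, and on nuclear reads they were 1.18 for ARO9 and 1.23 for ARO10.

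ARO9 and ARO10 share a sequence feature, and their upstream stretches are shown because of it. Both genes are known targets of Aro80, so finding its sites there was no independent result. Aro80 is known to bind repeated CCG triplets. The 600 bases before each start codon were searched on both strands for a CCG triplet followed, after 7 bases of any kind, by another CCG triplet, and the stretch of each gene that holds all its matches is printed below, 5′ to 3′ on the strand of the gene, with the triplets of the matches in capitals. The sequences are from the RefSeq R64 reference of strain S288C, and those of the strains studied may differ. The ARO9 stretch is chrVIII:375458-375596 on the plus strand, 251 to 113 bases before the start codon, and the ARO10 stretch is chrIV:1233856-1233993 on the plus strand, 362 to 225 bases before it.
ARO9: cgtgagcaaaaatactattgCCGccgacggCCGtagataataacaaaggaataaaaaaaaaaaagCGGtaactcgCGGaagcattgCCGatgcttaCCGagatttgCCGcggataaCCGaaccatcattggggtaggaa
ARO10: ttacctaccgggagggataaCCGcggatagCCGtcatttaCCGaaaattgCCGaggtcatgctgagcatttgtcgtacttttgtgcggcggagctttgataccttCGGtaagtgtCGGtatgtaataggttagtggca

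ARO9 had 5 matches, 1 of them on the other strand (written CGG in the line above), and ARO10 had 4, also with 1 on the other strand. In each gene 3 overlapping matches form a run of 4 CCG triplets spaced 7 bases apart, from 165 to 133 bases before the start codon of ARO9 and from 342 to 310 before that of ARO10. Of 5999 upstream regions of this length, 6.33% held such a pair at least once and 6 regions held a run of 4 triplets. Those 6 count the runs of ARO9 and ARO10 from both sides, since each lies between the gene and one transcribed away from it. Among the other 8 genes, PHA2 held 1 pair and no run.

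**Figure D2:**
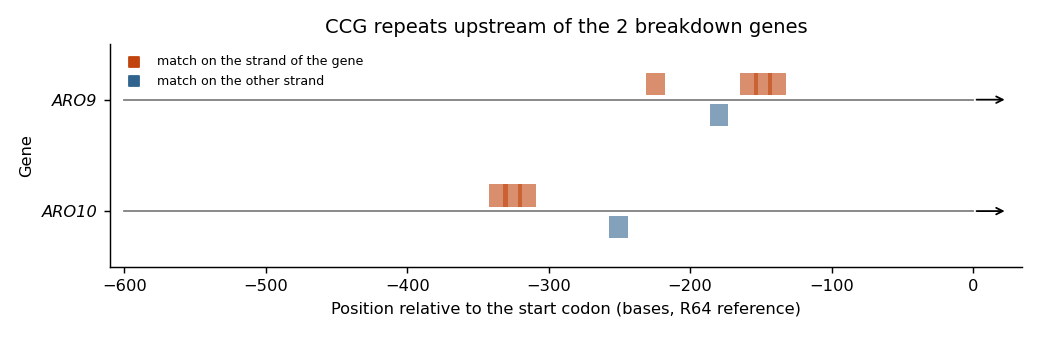
Matches to the CCG pair in the 600 bases before the start codons of ARO9 and ARO10 in the R64 reference, drawn to scale, with matches on the strand of the gene above the line and those on the other strand below it. Each gene has 3 overlapping matches that make up the run of 4 triplets, nearer to the start codon in ARO9 than in ARO10.

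ARO80, the gene of the activator itself, did not pass the test. It was at 14.9, 14.9 and 14.6 FPKM in the IMF17 libraries and 13.2, 14.4 and 15.1 FPKM in the IMX2109 libraries. The strains overlapped, and the log2 fold change was 0.06 ± 0.08 (SE, limma adjusted p = 0.587) with a 95% interval from -0.11 to 0.22. ESBP6, another gene under Aro80, did not pass either, at 33.1 ± 1.11 against 31.8 ± 0.795 FPKM (SD, n = 3; log2 fold change 0.05, limma adjusted p = 0.505). It was not among the genes with a run of 4 CCG triplets in the upstream window.

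The entry into the pathway is made by a pair of isoenzymes, Aro3 and Aro4, that join phosphoenolpyruvate to erythrose 4-phosphate and are inhibited by phenylalanine and by tyrosine, respectively. ARO3 (chromosome 4, 515678 to 516790, plus strand) stood at 297, 300.1 and 299 FPKM in IMF17 and 335, 333 and 335 FPKM in IMX2109. Its libraries did not overlap and differed little within a strain. It fell by 0.16 ± 0.03 on the log2 scale (SE, limma adjusted p = 0.00382). ARO4 (chromosome 2, 708912 to 710024, minus strand), the highest of the 10 genes in both strains, stood at 540.4, 548 and 545 FPKM in IMF17 and 648, 615 and 586 FPKM in IMX2109. It fell by 0.18 ± 0.04 (limma adjusted p = 0.00699), again with no overlap. Under median-ratio rescaling neither fall passed (limma adjusted p = 0.0991 for ARO3 and 0.165 for ARO4), nor did either on nuclear reads (0.182 and 0.202). The coding sequences of the pair are 69.8% identical in R64, with a longest identical run of 17 bases.

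ARO1 encodes a large protein that carries several consecutive enzyme activities of the shikimate pathway. It is the longest of the 10 genes at 4767 bases (chromosome 4, 682107 to 686873, plus strand). Its level was 71.8, 72.7 and 74.5 FPKM in IMF17 and 58.6, 67.5 and 80.6 FPKM in IMX2109. The IMX2109 libraries lay both below and above all those of IMF17. No difference passed the test (log2 fold change 0.09 ± 0.09, limma adjusted p = 0.452). Without IMX2109 replicate 3 ARO1 was called higher in IMF17 (log2 fold change 0.21, limma adjusted p = 0.028), and without IMX2109 replicate 1 its log2 fold change was -0.016. The deviations of ARO1 from its strain mean were -0.22 in IMX2109 replicate 1 and 0.23 in IMX2109 replicate 3, in the same direction as those of long features in these libraries. The part of feature length in the result for ARO1 was not tested beyond removing the trend with length from each library, which left it short of the threshold.

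**Figure D3:**
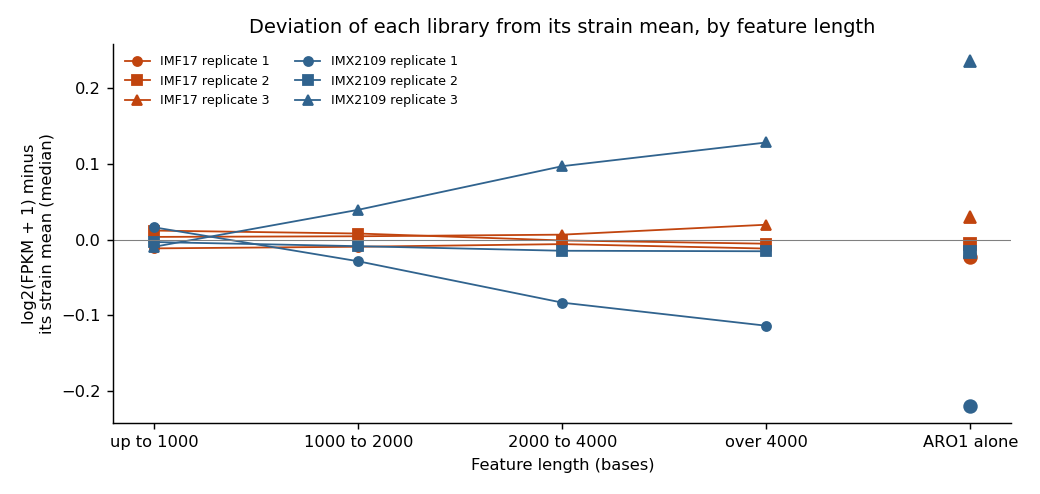
Median deviation of log2(FPKM + 1) from the strain mean for features of 4 length classes, 1 line per library, with the deviation of ARO1 alone at the right. IMX2109 replicates 1 and 3 move apart as length grows, to -0.11 and 0.13 over 4000 bases, and ARO1 lies at -0.22 and 0.23 in them.

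ARO2 encodes chorismate synthase, the last enzyme before the branch point. It lies on chromosome 7 from 241762 to 242892 on the plus strand. It was at 365, 354 and 382 FPKM in IMF17 and 434, 420.3 and 421 FPKM in IMX2109, with no overlap. It fell by 0.21 ± 0.04 on the log2 scale (SE, limma adjusted p = 0.002). The call was kept after median-ratio rescaling (limma adjusted p = 0.045) and missed the threshold after rescaling on nuclear reads (0.0538).

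ARO7 encodes chorismate mutase, which commits chorismate to phenylalanine and tyrosine and away from tryptophan. It lies on chromosome 16 from 683654 to 684424 on the minus strand. It was at 94.5, 99.6 and 100.5 FPKM in IMF17 and 116, 125 and 122 FPKM in IMX2109. Every IMF17 library lay below every IMX2109 library. Its fall of 0.30 ± 0.05 on the log2 scale (SE, limma adjusted p = 0.00069) was the widest among the synthesis genes and was called in every setting tried, with adjusted p at most 0.00692. After rescaling on nuclear reads it was 0.20 and the only fall left among the 10 genes.

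From prephenate, the product of chorismate mutase, Pha2 (prephenate dehydratase) leads to phenylalanine and Tyr1 (prephenate dehydrogenase) to tyrosine. PHA2 (chromosome 14, 42577 to 43581, minus strand) was at 57.2, 59.0 and 57.7 FPKM in IMF17 and 65.8, 63.8 and 67.0 FPKM in IMX2109, with no overlap, and fell by 0.18 ± 0.05 on the log2 scale (SE, limma adjusted p = 0.0155). That call was lost without IMF17 replicate 1 (limma adjusted p = 0.0507), under median-ratio rescaling (0.0871) and with scaling to nuclear reads (0.229). TYR1 (chromosome 2, 558638 to 559996, minus strand) was at 63.3, 66.6 and 66.4 FPKM in IMF17 and 63.1, 66.6 and 68.6 FPKM in IMX2109. Its strains overlapped fully, and the log2 fold change of -0.01 had a 95% interval from -0.13 to 0.10 (limma adjusted p = 0.851).

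The last step to both amino acids is made mainly by Aro8, aromatic aminotransferase I. ARO8 (chromosome 7, 131446 to 132948, plus strand) was at 455, 455 and 469.5 FPKM in IMF17 and 504, 516 and 552 FPKM in IMX2109. It fell by 0.19 ± 0.04 on the log2 scale (SE, limma adjusted p = 0.00533), with no overlap of libraries. The fall was kept after median-ratio rescaling (limma adjusted p = 0.0494) and lost after rescaling on nuclear reads (0.124). ARO8 and ARO9, the paralogous aminotransferases, are 63.6% identical over their aligned coding bases in R64, with a longest identical run of 16 bases.

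**Figure D4:**
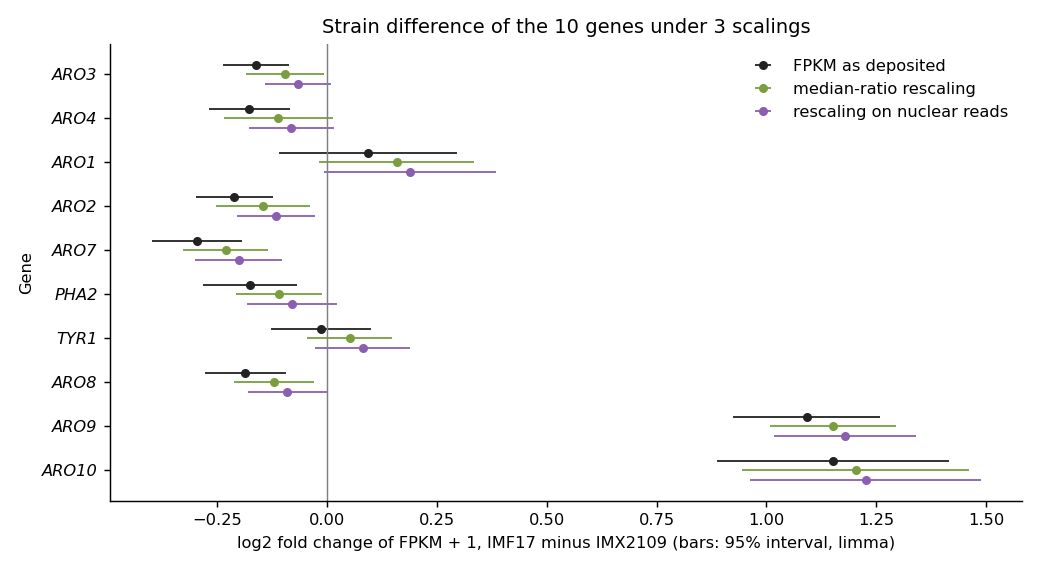
Log2 fold change of FPKM + 1 (IMF17 minus IMX2109) of each gene with its 95% interval from limma, for FPKM as deposited and under both rescalings. Rescaling moves every gene to the right by about the same amount. ARO9 and ARO10 stay far above 0 in each, and ARO7 stays below 0 in each.

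In all, 6 of the 10 genes were called lower as deposited, 3 after median-ratio rescaling (ARO2, ARO7 and ARO8) and 1 after rescaling on nuclear reads (ARO7), and ARO9 and ARO10 were called higher each time. The background moved too: 11.8% of tested features were lower and 16.3% higher after median-ratio rescaling, and 8.85% lower and 19.0% higher after rescaling on nuclear reads. With the trend with length removed, 2 of the 10 genes were higher and 3 lower, against 18.6% and 13.7% of tested features. Removing this trend also re-centres each library. The median log2 fold change over all tested features was -0.002 in this setting, beside -0.005 after median-ratio rescaling and -0.069 as deposited. Calls lost here therefore cannot be assigned to length apart from scaling. With the replicate number as a block, 2 were higher and 6 lower, against 12.6% and 28.0%. With a filter at 10 FPKM, which leaves ARO10 out, 1 of 9 was higher and 6 lower, against 10.2% and 27.5%. The libraries of the strains did not overlap for 8 of the 10 genes, 2 higher and 6 lower, while this held for 49.6% of tested features, 14.5% higher and 35.1% lower.

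The ratio of paired genes within a library does not depend on the scaling of the library. ARO9 was 0.0380, 0.0378 and 0.0371 of the level of ARO8 in the IMF17 libraries and 0.0149, 0.0141 and 0.0145 of it in the IMX2109 libraries. The balance of the aminotransferases thus differed with no overlap, by 1.38 on the log2 scale (two-sided exact permutation p = 0.1, the smallest that 3 against 3 can give). TYR1 was 1.11, 1.13 and 1.15 times PHA2 in IMF17 and 0.959, 1.04 and 1.02 times PHA2 in IMX2109. This ratio was higher in every IMF17 library, by 0.16 on the log2 scale (two-sided exact permutation p = 0.1). ARO4 was 1.82, 1.83 and 1.83 times ARO3 in IMF17 and 1.93, 1.85 and 1.75 times ARO3 in IMX2109. Here the strains overlapped, with a difference of -0.01 on the log2 scale and SDs of 0.00416 and 0.0719 (two-sided exact permutation p = 0.7).

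**Figure D5:**
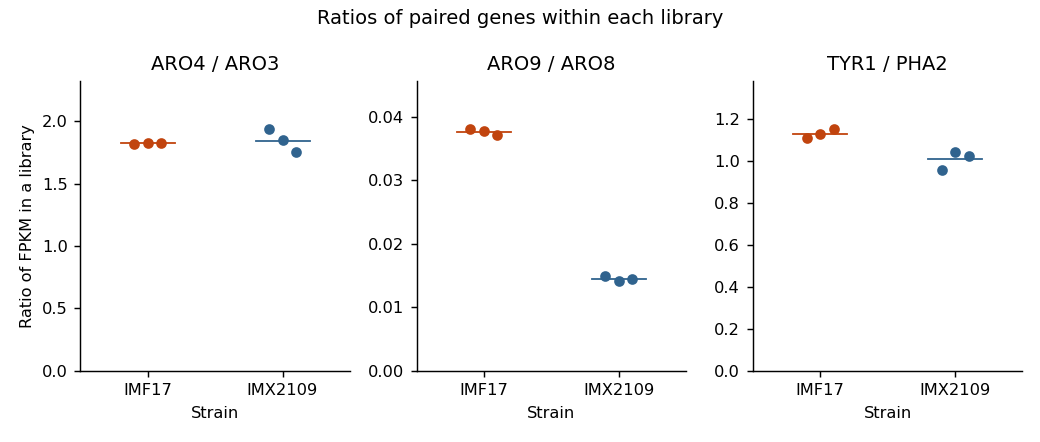
Ratio of FPKM of 2 genes within each library for ARO4 to ARO3, ARO9 to ARO8 and TYR1 to PHA2, with a point per library, a line at the strain mean and axes from 0. The ratio of ARO9 to ARO8 is 0.0371 to 0.0380 in IMF17 and 0.0141 to 0.0149 in IMX2109, whereas ARO4 to ARO3 overlaps.

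FPKM is per length, so levels can be ranked between genes. In both strains the order was ARO4, ARO8, ARO2, ARO3, ARO7, ARO1, TYR1, PHA2, ARO9 and ARO10. In IMF17 no gene overlapped the next one in this order. In IMX2109 ARO1 overlapped TYR1 and TYR1 overlapped PHA2, so these neighbours do not differ beyond their spread there. By root mean square difference of log2(FPKM + 1) centred over the 6 libraries, the features most like ARO9 were PRM10 (0.06), PHO84 (0.06) and EMI2 (0.08), and those most like ARO10 were COS6 (0.05), SSE2 (0.11) and AGX1 (0.12). ARO9 and ARO10 differed from each other by 0.12 on this measure, which made ARO9 the 4th nearest feature to ARO10 and ARO10 the 19th nearest to ARO9.

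The tryptophan branch leaves chorismate by way of anthranilate. Of its 5 genes, 2 were called lower, 0 higher and 3 did not pass, with a median log2 fold change of -0.06. Among all tested features 25.3% were called lower and 12.1% higher. TRP3, a subunit of anthranilate synthase with other activities, fell by 0.18 (165 ± 6.10 against 188 ± 10.5 FPKM, SD, n = 3; limma adjusted p = 0.0146), and TRP4, anthranilate phosphoribosyltransferase, fell by 0.20 (146 ± 2.90 against 168 ± 3.26 FPKM; limma adjusted p = 0.0024). TRP1, TRP2 and TRP5 gave log2 fold changes of -0.03, -0.06 and 0.01. After rescaling on nuclear reads 0 of the 5 were called lower, against 8.85% of all tested features. Tryptophan breakdown toward NAD through kynurenine had 1 of 7 genes higher and 0 lower, BNA1 at 475 ± 12.5 against 418 ± 7.92 FPKM (limma adjusted p = 0.00302), a share near the 12.1% of all tested features called higher. Under either rescaling BNA5 was called higher as well, making 2 of 7 (log2 fold change 0.15 and 0.18; limma adjusted p = 0.0236 and 0.0131). The share of all tested features called higher grew too, to 16.3% after median-ratio rescaling and 19.0% on nuclear reads. ABZ1 and ABZ2, which draw on chorismate for folate, did not pass (log2 fold changes 0.08 and -0.04).

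The pentose phosphate pathway supplies erythrose 4-phosphate. Of 9 genes, 5 were lower and 2 higher, and 3 were lower and 2 higher after either rescaling. Of all tested features, 25.3% were lower and 12.1% higher as deposited. These shares were 11.8% and 16.3% after median-ratio rescaling, and 8.85% and 19.0% on nuclear reads. The rises were in the minor isoenzymes, the transketolase TKL2 (4.63 ± 0.363 against 1.15 ± 0.139 FPKM, SD, n = 3; limma adjusted p = 3.36e-06) and the transaldolase NQM1 (29.4 ± 2.44 against 8.01 ± 0.450 FPKM; limma adjusted p = 2.85e-08). RKI1 fell by 0.38 and GND1 by 0.24 on the log2 scale (limma adjusted p = 0.000384 and 0.000375). TAL1, the main transaldolase, did not pass (log2 fold change -0.01), and TKL1, the main transketolase, fell by 0.09 (limma adjusted p = 0.0488), a call lost after either rescaling.

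Of 10 tested genes of the later Ehrlich steps, 4 were higher and 1 lower, against 12.1% and 25.3% of all tested features. After median-ratio rescaling 5 were higher and 0 lower, against 16.3% and 11.8% of all tested features. With scaling to nuclear reads 6 were higher and 0 lower, against 19.0% and 8.85%. As deposited, the rises were in the glycolytic end genes ADH1 (9312 ± 366 against 2005 ± 177 FPKM, SD, n = 3) and PDC1 (8136 ± 245 against 7442 ± 188 FPKM), both on the neochromosome in the assembly, in PDR12, an exporter of organic acids (92.8 ± 2.96 against 73.7 ± 6.58 FPKM, SD, n = 3; limma adjusted p = 0.00221), and in HFD1, an aldehyde dehydrogenase (115 ± 4.58 against 102 ± 0.180 FPKM; limma adjusted p = 0.0088). PDC1 lost its call after median-ratio rescaling (limma adjusted p = 0.0702) and kept it on nuclear reads (0.00655). ADH3 fell by 0.17 on the log2 scale (limma adjusted p = 0.00245), a call lost under either rescaling (0.0948 and 0.138). SFA1 and ADH6, other alcohol dehydrogenases, the decarboxylase-related THI3, and the acetyltransferases ATF1 and ATF2 did not pass. SFA1 and THI3 were called higher under either rescaling, SFA1 at a log2 fold change of 0.17 and 0.20 (limma adjusted p = 0.0199 and 0.0151) and THI3 at 0.15 and 0.18 (0.0441 and 0.0409). PDC5, PDC6, ADH2, ADH4, ADH5, ADH7 and the permease gene TAT1 were not analysed here.

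Of 8 regulator genes, 4 were lower and 0 higher as deposited, and GAT1 alone was lower after either rescaling. Of all tested features, 25.3% were lower and 12.1% higher as deposited. The share lower was 11.8% after median-ratio rescaling and 8.85% on nuclear reads. GCN4 had 1888 ± 22.8 against 2117 ± 39.3 FPKM (SD, n = 3) and fell by 0.16 on the log2 scale (limma adjusted p = 0.00439). Gcn4 is controlled mainly at translation, which these data do not measure. GAT1, an activator of genes for use of nitrogen sources, fell by 0.34 (163 ± 2.66 against 206 ± 10.5 FPKM, limma adjusted p = 0.000219). The GAT1 feature is 1410 bases long, shorter than the gene in R64, at 1533 bases. GLN3, of the same family, fell by 0.19 (limma adjusted p = 0.0297).

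The known Gcn4 sequence TGACTCA stood in the 600 upstream bases of 2 of the 10 genes, ARO1 and ARO4, against 4.72% of all 5999 upstream regions, searched on both strands. The stretches around these matches are shown so that the synthesis genes can be set beside the breakdown genes, in the same layout, with the match in capitals. That of ARO1 is chrIV:704241-704287 on the plus strand and that of ARO4 is chrII:718280-718326 on the minus strand of R64.
ARO1: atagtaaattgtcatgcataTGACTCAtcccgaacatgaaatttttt
ARO4: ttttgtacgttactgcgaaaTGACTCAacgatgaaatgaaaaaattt
Neither ARO9 nor ARO10 held these letters in this window, and ARO2, ARO3, ARO7, ARO8, PHA2 and TYR1 did not hold them either. Their absence thus does not set the breakdown genes apart.

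Among 11 tested genes of aromatic amino acid uptake and of amino acid sensing, 1 was higher and 3 lower. These counts are near the shares of all tested features, 12.1% higher and 25.3% lower. BAP3, a broad permease, rose by 0.38 (45.1 ± 3.07 against 34.7 ± 5.46 FPKM, SD, n = 3; limma adjusted p = 0.0142). GAP1, the general amino acid permease, fell by 0.29 (172 ± 3.22 against 211 ± 14.9 FPKM; limma adjusted p = 0.00128), and AGP1 fell by 0.14 (limma adjusted p = 0.0156), a call lost after either rescaling. The feature named BAP2 fell by 0.60 (limma adjusted p = 0.000118), but at 4573 bases it is longer than the gene in R64, at 1830 bases. TAT2, the high-affinity tryptophan and tyrosine permease, did not pass (log2 fold change -0.09, limma adjusted p = 0.271).

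Other amino acid pathways give the setting for the falls. Of 9 genes of lysine synthesis 7 were lower and 0 higher, with a median log2 fold change of -0.25, where 25.3% of all tested features were lower. Of 10 genes of branched-chain amino acid synthesis 8 were lower and 1 higher, with a median of -0.24. Of all tested features 12.1% were higher. The first 8 aromatic genes, without ARO9 and ARO10, had medians of -0.17 in the 4 genes to chorismate and -0.18 in the 4 genes from it to phenylalanine and tyrosine, beside -0.07 for all tested features. After rescaling on nuclear reads the medians were -0.16 for lysine, -0.14 for branched-chain, -0.07 for the first aromatic group and -0.09 for the second, beside 0.02 for all tested features. In that setting 5 of 9 lysine genes and 5 of 10 branched-chain genes were still called lower. The aromatic groups had 0 of 4 and 1 of 4 lower, and all tested features 8.85%. Whether the aromatic genes differ from these pathways was not tested.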

How the data were processed

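The deposited values are FPKM, made by the authors as 1 table per library. The submitters' processing notes name edgeR, DESeq2, featureCounts, SAMtools and STAR 2.5.4a. The sources used here do not give the role of each, or how strand and reads with several matches were handled. Per the labels' protocols the library kit was stranded. Per the file headers, features lie on an assembly of IMF17, so reads of IMX2109 were counted on gene models of the other strain. Gene positions are on that assembly; all 10 genes have the same length in R64.

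FPKM times length gave whole reads for 100% of values within 0.01 reads. Features with a mean of at least 1 FPKM were tested with limma 3.58.1 (R 4.3.3) on log2(FPKM + 1), with a trended prior variance, two-sided, with Benjamini-Hochberg adjustment over 5425 features and a threshold of 0.05. This scale understates changes of low genes. Folds are ratios of mean FPKM. Ratios within a library were compared by exact permutation (scipy 1.17.1). A limma p-value sets the strain difference of a feature against the spread between libraries of a strain, drawn toward the trended prior variance. That spread holds differences between cultures together with those between libraries, such as the trend with length in IMX2109. On reads simulated for this comparison, with 5430 features tested, 76% of genes changed 1.25-fold and 98% of those changed 2-fold were recovered. The simulation gave all features the same dispersion, with no trend with length and no strain difference in neochromosome reads. These libraries differ from it in that. All falls of the synthesis genes were smaller than 1.25-fold, so recovery of changes of their size was not simulated. The recovered reads were tested with limma-voom as an alternative. Chi-square per degree of freedom between replicates was 3.15 to 18.1, above sampling noise. It was highest between IMX2109 replicates 1 and 3, the libraries that move apart with feature length. Spread of this kind cannot show that cultures were independent. Each library was counted as 1 culture because the replicates are described as biological triplicates.

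The genes, lists, tests and alternatives were chosen with earlier results of these data known. Named genes were the 10 genes, up to 4 called genes of each list, some regulators and permeases, and the 3 features nearest to ARO9 and to ARO10. ARO1, SFA1, TKL1 and AGP1 are named for how other settings moved them. Upstream sequences came from RefSeq R64 with its own annotation and Biopython 1.88 served for alignment. Alternatives were other pseudocounts and filters, rescaling, voom, robust variances, a replicate block, leaving out libraries and, added after seeing the data, removal of the trend with length.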

Additional observations from a re-analysis of the deposited data

How the results depend on the processing

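ARO9, ARO10 and ARO7 kept their direction and call in every setting that tested them. The log2 fold change ranged from 0.82 to 1.19 for ARO9, from 0.63 to 1.47 for ARO10 and from -0.32 to -0.20 for ARO7. ARO10 fell below a filter at 10 FPKM, which left 1 gene called higher. The count of genes called was 8 as deposited, 5 after median-ratio rescaling (3 lower), 3 after rescaling on nuclear reads (1 lower) and 5 after removal of the trend with length (3 lower), and 7 to 9 when leaving out a library (2 to 3 higher, 5 to 6 lower). The share of all tested features called when leaving out a library was not worked out, so those counts have no background. Their median log2 fold change was -0.043 without IMX2109 replicate 3 and -0.087 without IMX2109 replicate 1. Rescaling shifts all nuclear genes alike, and removal of the trend with length re-centres each library as well. ARO3, ARO4 and PHA2 lost their calls under both rescalings and with the trend with length removed. TYR1, never called, turned positive in the same settings, at 0.051, 0.081 and 0.059, and ranged from -0.047 to 0.013 when leaving out a library. ARO1 ranged from -0.016 to 0.21 when leaving out a library. The difference in the ratio of ARO4 to ARO3 ranged from -0.052 to 0.020, that of ARO9 to ARO8 from 1.35 to 1.40 and that of TYR1 to PHA2 from 0.13 to 0.19. With the replicate number as a replicate block 8 genes were called, 2 higher and 6 lower, as without it. Deviations of same-numbered libraries correlated by 0.10, -0.02 and 0.19 over 4965 features. Libraries with unlike numbers were not compared in this way, so whether the numbers pair the samples was not tested. Low read numbers limit ARO10 most, with as few as 64 reads in a library.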

Other observations

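The run of 4 CCG triplets upstream of ARO9 and ARO10 also lies upstream of the genes transcribed away from them, since each pair shares its upstream region in R64. SPL2, next to ARO9, encodes a regulator of phosphate transport and was higher in IMF17 (26.7 ± 2.31 against 13.4 ± 1.91 FPKM, SD, n = 3; log2 fold change 0.95 ± 0.10 SE, limma adjusted p = 4.12e-05). The neighbour of ARO10, SDH6, an assembly factor of succinate dehydrogenase, was higher as well (72.9 ± 4.45 against 47.6 ± 4.81 FPKM; log2 fold change 0.61 ± 0.07, limma adjusted p = 0.000106). ASK1, of the kinetochore, which also holds the run, did not pass (log2 fold change -0.05, limma adjusted p = 0.555), and SOH1, the last of the 6, was not analysed here. These genes were chosen after the motif search, and what their shared upstream regions have to do with the values was not tested.

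In 4 isoenzyme pairs among those of the lists, the member with the lower level rose in IMF17 while the other fell or did not pass: ARO9 with ARO8, TKL2 with TKL1, NQM1 with TAL1, and BAT2 with BAT1 of branched-chain amino acid transamination. BAT2, the cytosolic form, was at 64.3 ± 2.22 against 56.8 ± 1.18 FPKM (SD, n = 3; log2 fold change 0.18, limma adjusted p = 0.0185), and BAT1, the mitochondrial form, at 854 ± 35.9 against 1061 ± 51.4 FPKM (log2 fold change -0.31, limma adjusted p = 0.00045). These pairs were picked after their values were seen. Other pairs of the same lists do not show this. As deposited, both members were called lower for ARO3 and ARO4, for the homocitrate synthases LYS20 and LYS21 (log2 fold change -0.45 and -0.22) and for the isopropylmalate synthases LEU4 and LEU9 (-0.13 and -0.29), and neither passed for ATF1 and ATF2. Under either rescaling ARO3, ARO4, LYS21 and LEU4 lost their calls, while LYS20 and LEU9 stayed lower.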
